A study of Homo sapiens with 12 samples.

Results

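The 3 arrays described here are the control arrays at 12 h of a series of 12 expression arrays, and they were chosen by their sample titles alone. The other 9 are arrays of cells given Di and controls of a later time, and are not used here. They measured HK-2, an established cell line derived from human proximal tubule cells and immortalised with papillomavirus oncogenes. Per the labels, the cells had received the vehicle of a compound called Di for 12 h, so they were vehicle-exposed rather than untreated, and neither the vehicle nor its concentration is given in the sources used here. All 3 are listed as biological replicates of 1 cell line, so their spread is that between cultures and not between donors. The cells were plated the day before, were almost confluent, and grew in a defined mixture with epidermal growth factor, hydrocortisone, insulin, transferrin and selenite. The question was which genes these cells expressed without Di, read as log2 values above or below 4 in all 3 arrays. No groups were compared and no test was run. Errors are SDs of the 3 arrays (n = 3).

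The proximal tubule is the first segment of the nephron. It recovers most of the filtered sodium, glucose, amino acids, phosphate and protein through apical transporters and the endocytic receptors megalin and cubilin, and it secretes organic anions and cations, many of them drugs. Its cells are epithelial, with a brush border, tight junctions and simple keratins, and in culture or after injury they are known to lose part of this differentiated programme. HK-2 cells are widely used to study the toxicity of drugs in the kidney.

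A probe set is a group of short probes for 1 transcript, and a gene can have several. The arrays gave values for 54613 probe sets other than control probe sets, of which 38624 were used to describe 19740 genes. A gene was placed above the threshold when at least 1 of its probe sets exceeded a log2 value of 4 in all 3 arrays, and below it when all its probe sets lay under 4 in all 3 arrays. By that rule 10097 genes (51.1%) were above, 9327 (47.2%) were below and 316 (1.60%) were neither. The share above was 59.1% of protein-coding genes and 8.73% of genes for long noncoding RNA. The values had 2 masses that were not separated at the threshold, as 1834 genes had means between 3 and 4. A narrow one held 7646 genes with means under 3, and a broad one lay above the threshold, with a median of 7.99 among the genes above. Between 12 and 14 there were 376 genes, and 68 lay above 14.

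**Figure D1:**
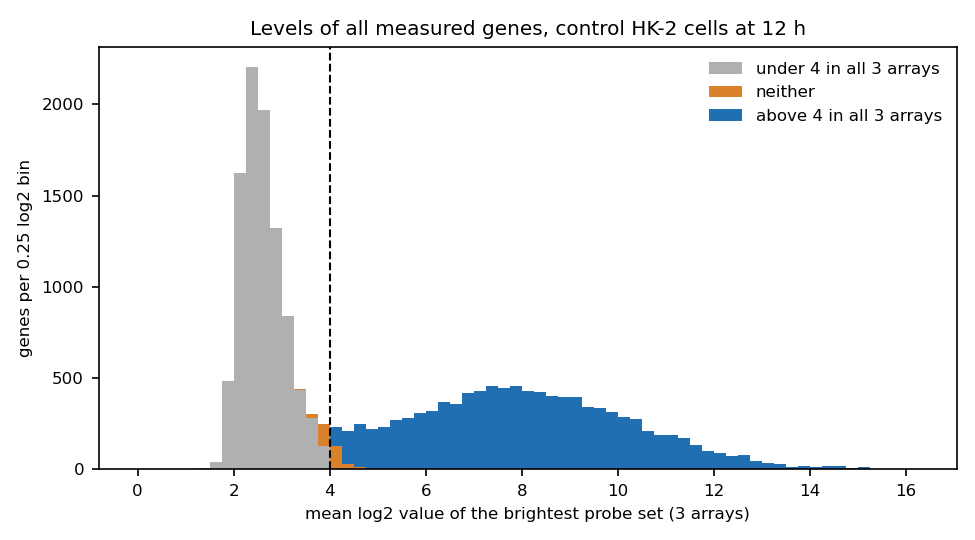
Histogram of the mean log2 value of each gene's brightest probe set over the 3 arrays (horizontal axis) against the number of genes in each bin of 0.25 (vertical axis), coloured by whether the gene lay above 4, under 4 or neither in all 3 arrays. Most genes under the threshold, drawn as a dashed line, pile up between 2 and 3, and those above spread up to almost 16.

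The 3 arrays were close to one another, with Pearson correlations of 0.998 for each pair over the same probe sets, which are not independent replicates. Their medians were 2.97, 3.01 and 3.02, and 20805 to 20892 probe sets per array exceeded 4. The values had been processed with GCRMA before deposit, so similar medians and counts are no independent sign that the arrays were alike. Genes above the threshold had a median SD of 0.0958. The median SD was 0.150 for means between 4 and 6 and 0.0418 for means above 14. Under 3 it was 0.0187, where values are compressed toward the bottom of the scale, so that SD is no measure of precision. The gap between 3' and 5' control probe sets, a measure of RNA integrity, was 1.55, 1.90 and 1.69 for actin and 0.0306, 0.157 and 0.190 for GAPDH. A log2 value also depends on how well its probes bind. The order of brightness is therefore that of probe sets and not a ranking of transcript abundance, and a value under 4 says only that these probe sets gave no signal above that level.

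For comparison, 75 genes typical of other tissues were listed, 67 of them measured. The list was drawn up with earlier results of these data known, so it is no independent check of the threshold. Above 4 lay 3 of the 67 genes (4.48%), and 64 were below, with means between 1.74 and 3.67. With a level of 3 in place of 4 the count was 9 of 67, and with every probe set required to be above 4 it was 1. The leukocyte gene PTPRC, the endothelial PECAM1, the liver gene ALB, the globin HBB and the insulin gene INS were among those below. The exceptions are known from nerve tissue. SYT1, a calcium sensor for vesicle fusion, lay at 8.96, 8.93 and 8.78, and the SNARE protein SNAP25 at 8.27, 8.39 and 8.24. MBP, the myelin basic protein gene, lay at 6.65, 6.71 and 6.27, with 3 of its 9 probe sets above. KLK3 was also below by the rule, though a probe set of it that is marked as open to cross-hybridisation lay at 4.88 ± 0.364. In RNA from a whole culture, a low level in all cells and a high level in a few cells cannot be told apart.

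Ribosomal and mitochondrial transcripts gave the brightest signals. Of the 40 genes with the highest means, 25 encode proteins of the cytosolic ribosome and 5 are encoded in the mitochondrial genome. When the 40 brightest were taken in each array alone, 37 genes were common to all 3 arrays. COX1, a mitochondrially encoded subunit of cytochrome oxidase, was the brightest, at 15.78, 15.73 and 15.70. TMSB4X, which encodes the actin-sequestering thymosin beta-4, followed at 15.66, 15.68 and 15.59. Its relative TMSB10 lay at 15.16, 15.12 and 15.04. Both thymosin genes lay above 15 in each array.

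Ribosomal genes filled most of the next places. RPL37A had 15.29 in all 3 arrays, RPL37 had 15.29, 15.28 and 15.23, and RPL41 had 15.22, 15.26 and 15.27. Of the 60 genes named as cytosolic ribosomal proteins, 58 lay above 4, with a median of 14.26 over the 60. The mitochondrial genes ND4 (15.13 ± 0.0328), ATP6 (15.12 ± 0.0789), COX2 (15.06 ± 0.0248) and ND2 (14.63 ± 0.0405) belong to the respiratory chain and the ATP synthase. Mitochondrial sequences also occur as nuclear copies, so these levels are uncertain.

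The 10 other genes were mostly those of glycolysis, the cytoskeleton and protein care. They included the glycolytic enzyme GAPDH (15.05 ± 0.0469), the lactate dehydrogenase subunit LDHB (14.84 ± 0.0211) and the ubiquitin gene UBB (14.88 ± 0.0376). The chaperone HSP90AA1 lay at 14.58 ± 0.102 and TPT1, the translationally controlled tumour protein, at 14.72 ± 0.0380. ACTB, the cytoplasmic actin, had 14.67, 14.85 and 14.88. The myosin light chain MYL6 (14.61 ± 0.0457) and the calcium-binding protein S100A6 (14.65 ± 0.0546) completed them. Of the 40, 7 were represented by probe sets that can cross-hybridise, GAPDH, LDHB and ACTB among them, and ribosomal genes have many processed pseudogenes.

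**Figure D2:**
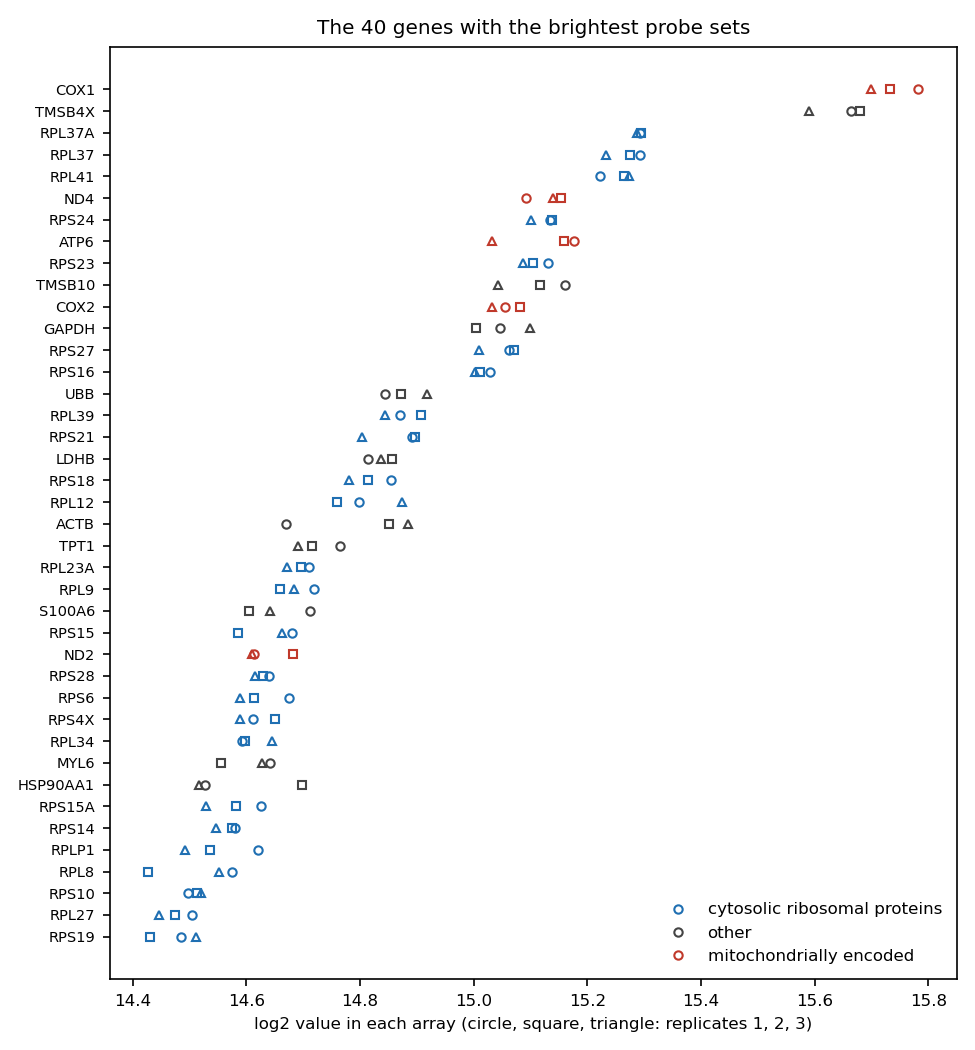
The log2 value in each array (horizontal axis, one symbol per replicate) for the 40 genes with the highest means, listed from top to bottom and coloured by family. The values run from 14.43 to 15.78, and 25 of the 40 genes belong to the cytosolic ribosome.

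Of 14 hand-picked markers of the labelled cell type, the proximal tubule, 12 were measured and 2 were above, PAX8 and CDH6. The 5 wider lists of proximal tubule genes had 62 of 132 above (47.0%), beside 51.1% of all genes and 59.1% of protein-coding ones. These markers thus do not stand for the lists. The other 10 had values between 1.90 and 3.03 in every array. LRP2, which encodes megalin, lay at 2.62, 2.67 and 2.68, and CUBN, which encodes its partner cubilin, at 2.94, 3.03 and 3.03. The phosphate transporter SLC34A1 lay at 2.89, 3.00 and 3.00, the glucose transporter SLC5A2 at 2.81, 2.78 and 2.85 and the water channel AQP1 at 2.61, 2.64 and 2.65. All of these sit in the narrow lower mass of genes, with ranges between arrays of 0.0312 to 0.109. In contrast, PAX8, a transcription factor of the nephron lineage, had 9.51, 9.64 and 9.55, and all 5 of its probe sets were above. CDH6, the cadherin of the embryonic proximal tubule, had 12.28, 12.21 and 12.27, with all 6 probe sets above.

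All 6 epithelial markers were above. EPCAM, an epithelial adhesion molecule, lay at 12.74, 12.69 and 12.49, and CDH1, which encodes E-cadherin, at 7.28, 7.14 and 6.80. KRT18 had 11.75, 11.62 and 11.69 and its partner KRT8 had 11.03, 11.20 and 11.24, each by 1 probe set open to cross-hybridisation. CDH1 was above by 1 of 2 probe sets, KRT19 by 1 of 2 and KRT7 by 1 of 4. Of the 5 genes picked as mesenchymal markers, 4 were above as well. Their levels alone do not show a mesenchymal state, CDH2 included. The intermediate filament VIM had 13.79, 13.79 and 13.74, N-cadherin (CDH2) had 9.27, 9.40 and 9.47 and fibronectin (FN1) had 14.38, 14.49 and 14.46. COL1A1 lay at 7.70, 7.96 and 7.87 with 1 of 4 probe sets above, and PDGFRB, a receptor of pericytes and fibroblasts, at 2.41, 2.44 and 2.48. These few markers were picked by hand. In the wider lists 58.9% of epithelial and 56.2% of mesenchymal genes were above, with 31 of 73 mesenchymal genes below. These shares stand beside 51.1% of all genes and 59.1% of protein-coding genes. With the median probe set they were 47.3% and 42.5%, beside 43.5% of all genes.

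Of the 4 measured markers of other nephron segments, the collecting duct water channel AQP2 was above (4.89, 4.93 and 4.95, 1 of 3 probe sets). The loop and distal transporters SLC12A1 and SLC12A3 and the podocyte gene NPHS1 were below. The 3 leukocyte and 3 endothelial markers measured were all below, with means of 1.80 to 3.07.

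**Figure D3:**
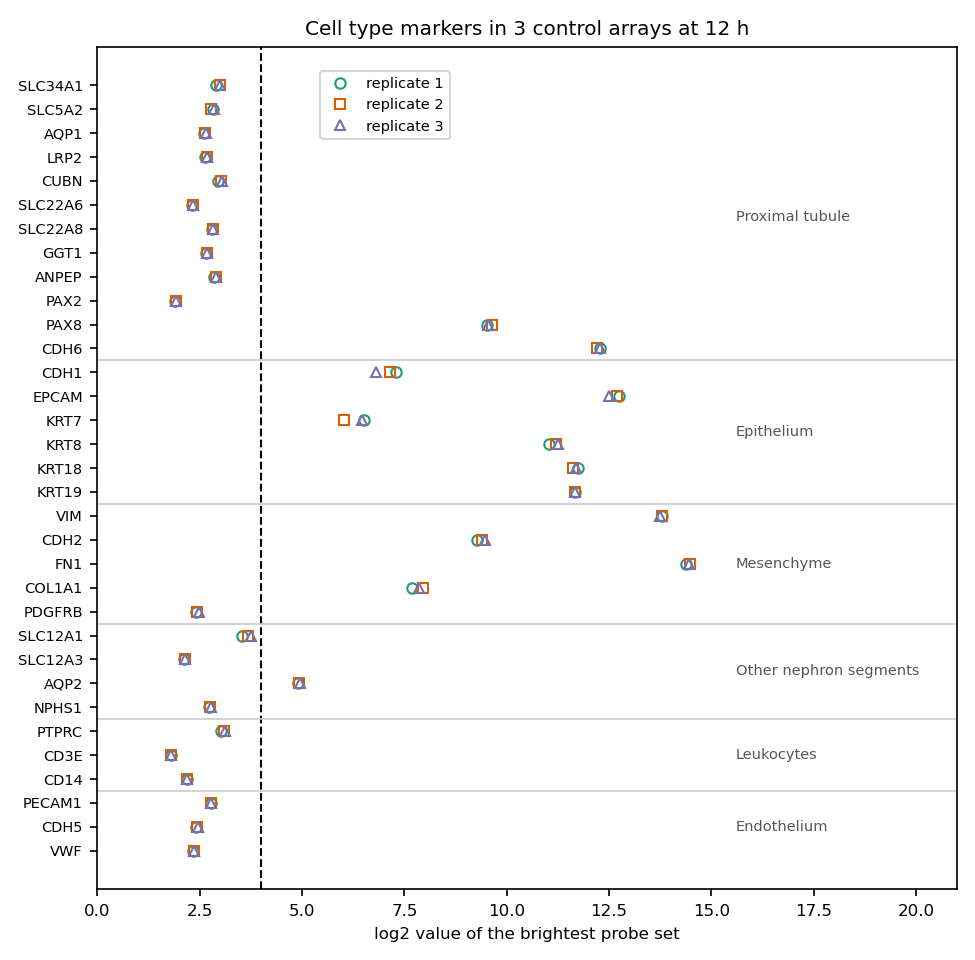
Log2 value of the brightest probe set in each of the 3 arrays (horizontal axis, one symbol per replicate) for markers of 6 cell classes, with the threshold of 4 as a dashed line. In the proximal tubule class, PAX8 and CDH6 lie to the right of the line, and the epithelial markers and all mesenchymal ones but PDGFRB do as well.

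Over the 8 tubular lists, 100 of 214 measured genes were above (46.7%) and 113 below. The share was 51.1% of all genes and 59.1% of protein-coding genes, and the single lists that follow are to be read beside these shares. For reabsorption, 14 of 38 genes were above (36.8%). The basolateral sodium bicarbonate cotransporter SLC4A4 had 11.91, 11.95 and 11.75, all 4 probe sets above. ATP1B1, the beta subunit of the sodium pump, had 13.95, 14.07 and 13.97, and the inward rectifier KCNJ15 had 12.63 ± 0.0548. The taurine transporter SLC6A6 (11.83 ± 0.0897) and the widely expressed phosphate transporter SLC20A1 (11.05 ± 0.0455) were above too. The kidney phosphate transporters SLC34A1 and SLC34A3 were below.

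Partner subunits did not always share a side. SLC3A1, the heavy chain of the cystine transporter, had 8.84, 8.53 and 8.62, with 1 of 3 probe sets above. Its light chain SLC7A9, with 1 probe set, had 1.75, 1.77 and 1.77. The heavy chain SLC3A2 (7.55 ± 0.0970) and the light chain SLC7A7 (7.48 ± 0.202), which together carry cationic amino acids, were both above. The apical scaffolds PDZK1 (10.29, 10.26 and 10.12) and NHERF1 (8.12 ± 0.0705) were above, and the sodium-proton exchanger SLC9A3, which they bind, was below. The glucose cotransporters SLC5A1 and SLC5A2 were below, and the basolateral glucose carrier SLC2A2 lay at 5.02 ± 0.0830.

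For endocytosis, 7 of 9 genes were above, the 2 below being the receptors LRP2 and CUBN. The adaptor DAB2 (8.19 ± 0.0424), the lipid phosphatase OCRL (8.33 ± 0.140), the chloride-proton exchanger CLCN5 (5.95 ± 0.172) and the megalin chaperone LRPAP1 (8.04 ± 0.0766) were above. So were the recycling genes RAB11A (11.33 ± 0.0716) and EHD1 (7.58 ± 0.284) and FCGRT (6.45 ± 0.0659), part of the receptor that salvages albumin and IgG.

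For organic ion and drug transport, 15 of 27 were above. Uptake carriers of organic anions (SLC22A6, SLC22A8, SLC22A7, SLC22A11) and of cations (SLC22A2), and the extruders SLC47A1 and SLC47A2, were below. SLC22A4, another carrier of organic cations, was above at 6.17, 6.03 and 5.65. Above were efflux pumps of the ABC class, ABCC4 (9.88 ± 0.0257), ABCB1, the P-glycoprotein (9.69, 9.78 and 9.77), ABCC3 (9.06 ± 0.0892), ABCC5 (7.93 ± 0.0594) and ABCC1 (7.72 ± 0.118), while ABCC2 and ABCG2 were below. The organic anion carrier SLCO4C1 had 11.09, 11.05 and 10.92 and SLCO4A1 had 11.31 ± 0.0642. The urate and phosphate carriers SLC17A3 (8.68, 8.50 and 8.44) and SLC17A1 (6.89, 6.65 and 6.84), known mainly from the proximal tubule, were above in every array. The copper transporter SLC31A1 lay at 8.92 ± 0.0103, and the carnitine transporter SLC22A5 at 6.14 ± 0.0534.

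Brush border enzymes had 7 of 22 above (31.8%). The peptidases DPP4 (10.70, 10.50 and 10.38) and ENPEP (10.34, 10.37 and 10.12) were above with all their probe sets. ANPEP, MME and ACE, also peptidases, the glutathione-cleaving GGT1, the phosphatase ALPL and the microvillar protein VIL1 were below, with none of the probe sets used above. GGT1 rested on 1 probe set, and probe sets annotated to several genes were not used for any gene. The membrane linker ezrin (EZR) had 10.88 ± 0.0252 and the nucleotidase NT5E 8.17 ± 0.114. The carbonic anhydrase CA12 (7.21 ± 0.0741), the stem cell marker PROM1 (5.25 ± 0.211) and CLTRN (4.40 ± 0.218), which brings amino acid transporters to the apical membrane, were the others above.

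For metabolism, 19 of 36 were above. MIOX, the myo-inositol oxygenase of the renal cortex, had 8.24, 8.06 and 8.08, and GATM, which starts creatine synthesis, had 8.53 ± 0.0439. Glutamine synthetase (GLUL) had 11.01 ± 0.0233, glutamate dehydrogenase (GLUD1) 10.47 ± 0.0901 and carbonic anhydrase CA2 8.97 ± 0.110. The arginine-making pair ASS1 (11.04 ± 0.0663) and ASL (9.07 ± 0.117) and the tyrosine-degrading HGD (8.76 ± 0.102) and FAH (9.12 ± 0.151) were above, with HPD of the latter pathway below. The fatty acid oxidation genes ACADM (10.92 ± 0.162), EHHADH (9.18 ± 0.0717), CPT1A (7.29 ± 0.134) and CPT2 (6.69 ± 0.100) were above. The gluconeogenic enzymes PCK1, FBP1 and G6PC1 were below, while the mitochondrial PCK2 had 6.80 ± 0.0721. The vitamin D hydroxylases CYP27B1 and CYP24A1 were below.

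Of the renal lineage transcription factors, 10 of 27 were above. Besides PAX8 these were CITED2 (11.17 ± 0.104), IRX3 (9.64 ± 0.0637), the nephron progenitor factor SALL1 (9.35, 9.29 and 9.22), FOXD1 (7.40 ± 0.115), MAF (7.40 ± 0.140), HOXC10 (7.24 ± 0.234), TFCP2L1 (6.39 ± 0.121), HNF4G (4.87 ± 0.0371) and OSR2 (4.34 ± 0.171). PAX2, LHX1, SIX2, WT1, EYA1 and OSR1 were below.

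Injury and progenitor markers had the largest share of the 8 tubular lists, with 20 of 25 above (80.0%). The list was picked by hand, and this share alone does not show an injured or progenitor state. Osteopontin (SPP1) had 14.55, 14.49 and 14.36, the surface protein CD24 13.49 ± 0.167, the chemokine CXCL8 12.76 ± 0.175 and clusterin (CLU) 12.36 ± 0.0219. The annexin partner S100A10 (14.20 ± 0.0542), the antigen-presenting light chain B2M (13.85 ± 0.0651), IGFBP7 (13.40 ± 0.139) and the protease inhibitor TIMP1 (12.37 ± 0.0904) were above. HAVCR1, which encodes the injury marker KIM-1, had 9.26, 9.72 and 9.18, with replicate 2 the highest. VCAM1 (9.22 ± 0.0484), SOX4 (11.41 ± 0.0973) and SOX9 (6.53 ± 0.137) were above, while LCN2, which encodes NGAL, had 3.09, 3.09 and 3.06. CXCL1 (2.62 ± 0.109), TFF3 (2.08 ± 0.0234) and HAVCR2 (2.44 ± 0.0183) were below too. ANXA2 was below by its single ordinary probe set, whereas all 3 of its probe sets marked as open to cross-hybridisation were above, up to 13.91 ± 0.0328.

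Of the markers of other nephron segments, 8 of 30 were above (26.7%). This count fell to 5 with a level of 5, and to 3 with a level of 6, with the median probe set or with every probe set required. CLDN16, a claudin of the thick ascending limb, had 8.10, 7.21 and 7.43, a wide spread, and its partner CLDN19 had 6.41 ± 0.0226. The sodium channel subunit SCNN1A had 7.94 ± 0.0328, while its partners SCNN1B and SCNN1G were below. AQP3 (5.65, 5.52 and 4.72) and the podocyte genes SYNPO (5.79 ± 0.358), PLA2R1 (5.31 ± 0.232) and PODXL (4.88 ± 0.120) completed the list with AQP2.

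Epithelial lists had 66 of 112 genes above (58.9%, beside 51.1% of all genes and 59.1% of protein-coding ones), 44 below and 2 neither. Of cadherins and adhesion genes 12 of 15 were above, CDH16, the kidney-specific cadherin, at 7.86, 7.92 and 8.05 and P-cadherin (CDH3) at 7.01 ± 0.0665 among them. The catenins CTNNB1 (10.51 ± 0.112) and CTNNA1 (10.27 ± 0.102), which tie cadherins to actin, the nectin NECTIN3 (10.06 ± 0.124) with its partner AFDN (9.42 ± 0.0920), and the mucin MUC1 (9.65 ± 0.0632) were above. Of tight junction genes 16 of 26 were above. CLDN1, a sealing claudin, had 14.34, 14.40 and 14.29, and CLDN2, the cation-pore claudin of the proximal tubule, had 9.78, 9.45 and 9.65. CLDN11 (10.66 ± 0.0573), CLDN12 (9.05 ± 0.0314), CLDN4 (6.60 ± 0.0681) and CLDN15 (5.57 ± 0.136) were above, as were the scaffold TJP1 (10.78 ± 0.0209), occludin (OCLN, 8.81 ± 0.204) and tricellulin (MARVELD2, 7.82 ± 0.150). The junctional receptor CXADR had 10.25 ± 0.0523 and paracingulin (CGNL1) 8.74 ± 0.0801. CLDN10, the other proximal tubule claudin, and CLDN7, CLDN8, CLDN14 and CLDN18 were below.

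Desmosome and polarity genes had 19 of 30 above. Desmoglein DSG2 (10.90 ± 0.0545), desmocollin DSC2 (8.53 ± 0.0927), plakoglobin (JUP, 8.10 ± 0.0504) and desmoplakin (DSP, 7.85 ± 0.0191) formed a set of desmosomal parts above 4. The epidermal members DSG1, DSG3, DSC1 and DSC3 were below. The polarity genes PRKCI (11.69 ± 0.0954), PARD6B (10.78 ± 0.102), PARD3 (8.30 ± 0.205), CRB3 (7.41 ± 0.0401) and SCRIB (8.68 ± 0.158) were above. The plakophilin-related PKP4 (10.64 ± 0.0848) and the scaffolds DLG1 (10.07 ± 0.0855) and PALS1 (9.40 ± 0.00856) were above too. Among regulators, proteases and sorting genes 12 of 20 were above. The protease inhibitor SPINT2 had 11.62 ± 0.0334, the sorting protein MAL2 11.34 ± 0.0353, ELF3 7.42 ± 0.0298 and the splicing regulator ESRP1 5.58 ± 0.222. The transcription factors TFAP2A (9.35 ± 0.0652), KLF5 (8.50 ± 0.0760) and KLF4 (6.60 ± 0.128), the sorting adaptor AP1M2 (8.60 ± 0.138) and the protease inhibitor SPINT1 (6.86 ± 0.131) were above. GRHL2, OVOL1 and OVOL2, factors that maintain epithelium, and RAB25 were below.

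Of keratins, 7 of 21 were above. They were the simple keratins KRT8, KRT18, KRT19 (11.68 in all 3 arrays) and KRT7 (6.51, 6.02 and 6.45), together with KRT20 (7.47 ± 0.125), KRT80 (7.04 ± 0.134) and KRT10 (10.88 ± 0.0829). KRT10 is a keratin of the upper epidermis, and its partner there, KRT1, was below. KRT5, KRT14, KRT4 and KRT13, also keratins of stratified epithelium, were below.

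The mesenchymal lists, which also hold basement membrane genes, had 41 of 73 genes above (56.2%) and 31 below. This share stands beside 51.1% of all genes and 59.1% of protein-coding ones. Of transcription factors 7 of 20 were above. ZEB1, a repressor of epithelial genes, had 7.80, 7.77 and 7.80, and TWIST1 had 7.31, 7.47 and 7.33. The chromatin protein HMGA2 had 12.55, 12.69 and 12.68. The factors ETS1 (9.80 ± 0.00646), FOSL2 (8.28 ± 0.0979) and TCF4 (4.48 ± 0.330) were above as well. SNAI1 (2.87, 2.83 and 3.04) and SNAI2 (2.43, 2.54 and 2.53) were below, and so were TWIST2, PRRX1 and FOXC2. ZEB2 straddled the threshold at 4.56, 3.89 and 3.87, only replicate 1 being above.

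Of surface and cytoskeletal genes 13 of 24 were above. They included caveolin 1 (CAV1, 12.98 ± 0.0354), CD44 (10.76 ± 0.0131), caldesmon (CALD1, 10.87 ± 0.0948), tropomyosin 1 (TPM1, 12.96 ± 0.131) and S100A4 (8.51 ± 0.142). The adhesion molecule ALCAM had 10.56 ± 0.0717 and palladin (PALLD) 10.40 ± 0.182. ACTA2, the smooth muscle actin of myofibroblasts, lay at 5.76 ± 0.204, and TAGLN, CNN1, DES, THY1 and FAP were below. Of matrix genes 21 of 29 were above. Versican (VCAN) had 12.90 ± 0.116, SPARC 12.48 ± 0.0716, tenascin C (TNC) 12.03 ± 0.118, and the basement membrane genes COL4A1 and LAMB1 12.28 ± 0.0543 and 12.16 ± 0.0328. COL4A2, the partner chain of COL4A1, had 11.95 ± 0.124. The proteoglycans decorin (DCN, 11.18, 11.01 and 10.96, 2 of 5 probe sets) and lumican (LUM, 9.56, 9.43 and 9.19, 1 of 2) were above, while the fibrillar collagen genes COL1A2, COL3A1, COL5A1 and COL5A2 were below.

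Of 322 measured receptor genes, 134 were above (41.6%, beside 51.1% of all genes and 59.1% of protein-coding ones), 184 below and 4 neither. The preset receptors for supplements of the medium, EGFR, NR3C1, INSR, IGF1R and TFRC, were all above. None was preset for selenite, and other proteins that may bind these supplements were not surveyed. EGFR, the receptor for epidermal growth factor, had 10.38, 10.70 and 10.73. NR3C1, the glucocorticoid receptor that binds hydrocortisone, had 9.10, 9.04 and 9.24. The insulin receptor INSR had 5.22, 5.16 and 5.24, and IGF1R, which insulin can also bind, had 8.12, 8.07 and 8.20. The transferrin receptor TFRC had 12.87, 12.87 and 12.88. Of their probe sets, 3 of 6 were above for EGFR, 3 of 4 for NR3C1, 2 of 5 for INSR, 3 of 5 for IGF1R and 3 of 4 for TFRC.

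Of receptor tyrosine kinases, 21 of 55 were above (38.2%). MET, the hepatocyte growth factor receptor, had 11.75, 11.80 and 11.94, and AXL, a receptor for GAS6, had 10.68, 10.91 and 10.69. RYK, which binds Wnt, had 9.90 ± 0.0951. All 4 fibroblast growth factor receptors were above, FGFR1 at 8.72 ± 0.0532, FGFR2 at 9.53 ± 0.0781, FGFR3 at 8.40 ± 0.164 and FGFR4 at 6.89 ± 0.0652. Of the EGFR family ERBB2 was above (7.25, 7.29 and 7.43), and ERBB3 and ERBB4 were below. Of ephrin receptors, EPHA2 (7.67 ± 0.177), EPHA4 (7.60 ± 0.187), EPHB1 (7.09 ± 0.0337) and EPHB4 (7.04 ± 0.136) were above. The receptors of platelet-derived growth factor (PDGFRA, PDGFRB) and of vascular endothelial growth factor (FLT1, KDR), as well as KIT and RET, were below, and FLT4 straddled the threshold.

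Nuclear receptors had 17 of 38 above. Besides NR3C1 these included the mineralocorticoid receptor NR3C2 (7.41 ± 0.109), all 3 peroxisome proliferator receptors (PPARA 6.28 ± 0.190, PPARD 6.89 ± 0.115, PPARG 7.36 ± 0.0845), the thyroid hormone receptor THRB (8.75 ± 0.135) and the vitamin D receptor VDR (4.87 ± 0.177). The retinoid X receptors RXRA (7.81 ± 0.133) and RXRB (7.67 ± 0.136) and the orphan receptors NR2C1 (9.13 ± 0.208), NR2C2 (8.01 ± 0.0340) and NR2F6 (9.03 ± 0.0739) were above. The oestrogen receptors ESR1 and ESR2, PGR, and the immediate early receptors NR4A1, NR4A2 and NR4A3 were below.

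G protein-coupled and natriuretic peptide receptors had 15 of 73 above (20.5%), the smallest share of the 8 receptor lists. The natriuretic peptide receptor NPR1, a guanylate cyclase, had 10.06, 10.17 and 10.24, and the prostaglandin receptor PTGER2 had 10.08, 10.22 and 10.05. The lysophosphatidic acid receptor LPAR1 had 8.19 ± 0.191, GPRC5C 8.90 ± 0.0753, the calcitonin receptor CALCR 7.14 ± 0.0376 and the adenosine receptor ADORA1 6.89 ± 0.130. The orphan GPRC5A had 7.53 ± 0.0678 and the prostaglandin receptor PTGER4 6.68 ± 0.190. PTH1R, the parathyroid hormone receptor, had 2.89, 2.93 and 3.14, and the angiotensin receptor AGTR1 had 2.67, 2.70 and 2.69. The dopamine (DRD1, DRD5), adrenergic (ADRA1A, ADRB1) and vasopressin (AVPR1A, AVPR2) receptors were below as well. F2R, the thrombin receptor, was below by the rule but had a probe set open to cross-hybridisation at 9.54 ± 0.102.

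**Figure D4:**
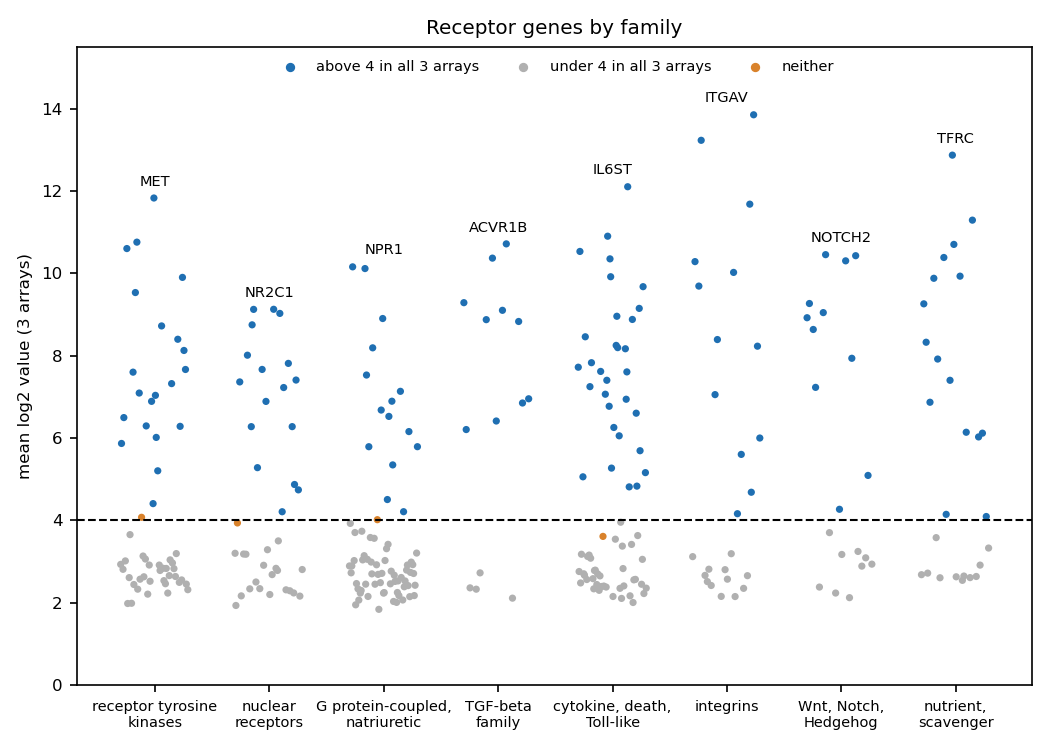
Mean log2 value over the 3 arrays (vertical axis) of each measured receptor gene in 8 families (horizontal axis), coloured by its side of the threshold of 4, with the brightest gene of each family named. G protein-coupled and natriuretic peptide receptors have 15 of 73 genes above the line and the TGF-beta family 10 of 14.

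Receptors of the TGF-beta family had 10 of 14 above. TGFBR1 (8.83 ± 0.171) and TGFBR2 (10.37 ± 0.0782), which together bind TGF-beta, the activin receptors ACVR1B (10.72 ± 0.0169) and ACVR2A (6.85 ± 0.207) and the BMP receptor BMPR2 (9.10 ± 0.0426) were above, and the endothelial members ACVRL1 and ENG were below. ACVR1 (9.29 ± 0.212), BMPR1B (6.95 ± 0.0656) and the decoy receptor BAMBI (8.88 ± 0.0495) were above. Cytokine, death and Toll-like receptors had 31 of 70 above. The shared subunit of the interleukin 6 family, IL6ST, had 12.09, 12.11 and 12.11, and its partners OSMR (10.91, 10.85 and 10.95), LIFR (8.20 ± 0.123) and IL6R (8.46 ± 0.0389) were above. Both chains of the interferon receptors IFNAR1 (7.61 ± 0.0193), IFNAR2 (7.62 ± 0.281), IFNGR1 (9.68 ± 0.0567) and IFNGR2 (8.96 ± 0.113) were above. The death receptors FAS (9.92 ± 0.0692), TNFRSF10B (10.35 ± 0.0332) and TNFRSF1A (8.88 ± 0.124) were above. TNFRSF21 had 10.53 ± 0.0920 and the interleukin 13 receptor chain IL13RA1 9.15 ± 0.0954. Of 10 Toll-like receptors, TLR2 (5.69 ± 0.181) and TLR3 (6.26 ± 0.0667) were above and the other 8, with TLR4, were below.

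Integrins, the receptors for matrix, had 13 of 25 above. ITGAV had 13.87, 13.88 and 13.80, and its partners ITGB1 (13.23 ± 0.0565), ITGB3 (8.39 ± 0.0568), ITGB5 (10.02 ± 0.0638) and ITGB8 (11.68 ± 0.0628) were above. The laminin receptor chains ITGA3 (9.69 ± 0.0415) and ITGA6 (8.23 ± 0.134) and the fibronectin receptor chain ITGA5 (7.05 ± 0.206) were above, and ITGA1, ITGA8 and the leukocyte chain ITGB2 were below. ITGAE, a chain known mainly from lymphocytes, had 10.29 ± 0.104. Wnt, Notch and Hedgehog receptors had 11 of 20 above, with LRP6 (9.27 ± 0.0720), LGR4 (10.30 ± 0.139), NOTCH2 (10.46 ± 0.0630), NOTCH1 (7.94 ± 0.115) and the Frizzled genes FZD6 (10.43 ± 0.0984), FZD2 (9.05 ± 0.132), FZD1 (8.92 ± 0.0895) and FZD5 (8.64 ± 0.0577) above and LRP5, LGR5, NOTCH4 and SMO below. Nutrient and scavenger receptors had 16 of 27 above, among them the lysosomal SCARB2 (11.29 ± 0.0711), the folate receptor FOLR1 (10.70 ± 0.282) and IGF2R (10.39 ± 0.0546). The mannose 6-phosphate receptor M6PR (9.26 ± 0.0883) and the lipoprotein receptor relatives LRP10 (9.93 ± 0.0368), LRP11 (9.88 ± 0.0469) and VLDLR (8.33 ± 0.148) were above. The fatty acid receptor CD36 was below.

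Cell cycle genes had 29 of 30 above. The replication clamp PCNA had 13.39 ± 0.0471, the mitotic kinase CDK1 11.85 ± 0.0490, topoisomerase TOP2A 11.97 ± 0.128 and the proliferation marker MKI67 9.79 ± 0.253. CCNB1 (11.46 ± 0.0617), MCM2 (11.36 ± 0.0555), CDK4 (11.25 ± 0.00444) and MYC (10.60 ± 0.0730), which drive division or replication, were above. CDKN2A, which encodes the inhibitor p16, had 8.73 ± 0.186, and what lies behind this level was not tested. TERT, the catalytic subunit of telomerase, was the 1 gene below, at 2.97, 2.97 and 2.98. For sugar use, 29 of 38 genes were above. The muscle-type aldolase ALDOA (13.09 ± 0.0560), the pyruvate kinase PKM (12.01 ± 0.0142), HK1 (10.64 ± 0.161), HK2 (7.90 ± 0.0763) and the glucose carrier SLC2A1 (7.08 ± 0.0297) were above. The glycolytic enzymes LDHA (14.45 ± 0.0718), ENO1 (14.07 ± 0.0130), PGK1 (13.48 ± 0.0631) and PGAM1 (13.16 ± 0.0428) were also above. The liver and kidney pyruvate kinase PKLR was below. PDK4, which restrains pyruvate oxidation, had 12.95 ± 0.0977.

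**Figure D5:**
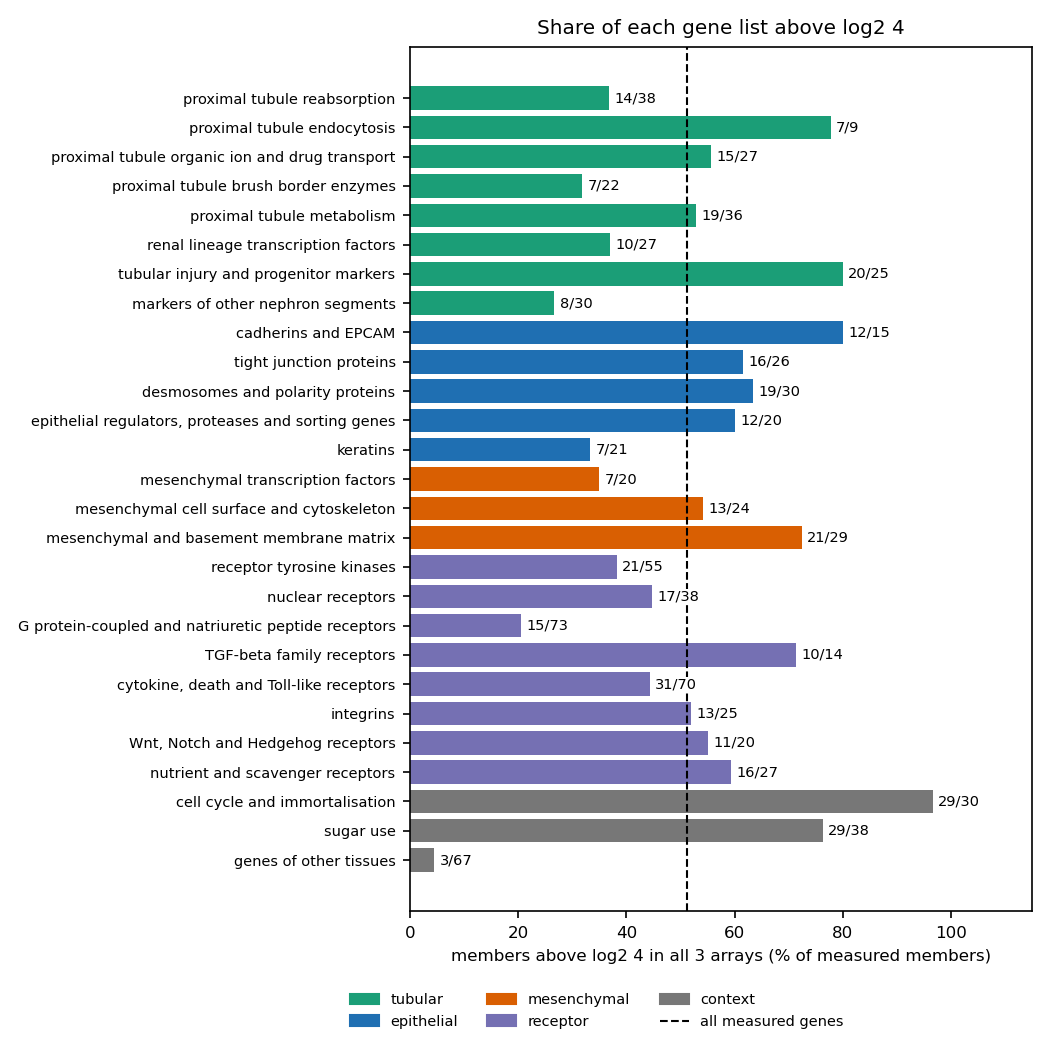
Share of measured members above a log2 value of 4 in all 3 arrays (horizontal axis, percent) for each of the 27 gene lists (vertical axis), with the counts printed beside the bars. The dashed line marks the 51.1% of all measured genes, and the genes of other tissues stand at 3 of 67.

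Of the 856 measured list members, 113 (13.2%) had means between 3 and 5, and among receptors 59 of 322 (18.3%) did. Just above it lay MSX1, LRP1 and SORL1, with means of 4.06 ± 0.0531, 4.09 ± 0.0845 and 4.15 ± 0.0117. Just below it lay CNTFR (3.95, 3.96 and 3.96), PRRX2 (3.93, 3.96 and 3.96) and GLP1R (3.85, 3.96 and 3.97). Of the same members, 9 were neither above nor below, namely SLC15A1, CLDN3, EVPL, NR2F1, S1PR5, IL17RB, SLC2A8, ZEB2 and FLT4. In all, 12 members, CLDN3 and IL17RB among them, change class once probe sets open to cross-hybridisation are counted. FXYD2, the gamma subunit of the sodium pump, is the brightest of those that move in the reabsorption list, at 13.10 ± 0.0401, against 3.49 ± 0.418 by its 1 ordinary probe set. SLC6A13 would stand at 9.27 ± 0.133 and MCAM at 9.64 ± 0.227.

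A gene with more probe sets had more chances of being above. The share was 35.6% of 9815 genes with 1 probe set and 78.6% of 2266 genes with 4 or more. Of the 6598 genes above that had more than 1 probe set, 4331 (65.6%) had at least 1 that was not above. The side of the threshold is thus that of a gene's best probe set.

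The promoters of genes on each side of the threshold were described by their CpG content. RefSeq promoters (GRCh38.p14) of 300 bases, from 250 before to 50 after the start, were matched to 15358 of the genes by gene ID, with the first entry used where a gene had several. A promoter was counted as CpG-rich with a GC content of at least 55% and an observed to expected CpG ratio of at least 0.6. This held for 78.9% of the 8407 genes above, 38.0% of the 6699 below and 60.8% of all. Within the lists, 42 of 73 tubular genes above (57.5%) and 22 of 83 below (26.5%) were CpG-rich, and 80 of 108 receptor genes above (74.1%) and 62 of 144 below (43.1%). For epithelial genes it was 30 of 43 above (69.8%) and 3 of 27 below (11.1%), and for mesenchymal genes 20 of 31 above (64.5%) and 7 of 14 below. The motif TATAAA, on the strand of the gene between 50 and 11 bases before the start, was in 1.42% of promoters of genes above, 5.25% of those below and 3.11% of all. Within the lists the shares lay closer together for tubular genes (8 of 73 above, 11 of 83 below), epithelial genes (4 of 43 and 3 of 27) and mesenchymal genes (2 of 31 and 1 of 14), and for receptor genes they were 1 of 108 and 6 of 144. These shares are descriptions without a test.

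The following stretches of 100 bases before the start show both kinds, with CpG and TATAAA in capitals, and were picked with their values known. Each is written 5′ to 3′ on the strand of its gene. TFRC (chr3:196082091-196082190, minus strand, GRCh38.p14) and CLDN1 (chr3:190322447-190322546, minus) are above 4 and CpG-rich, with CpG ratios of 0.920 and 0.921. SPP1 (chr4:87975614-87975713, plus) is above 4 with a ratio of 0.369, and is not CpG-rich. LRP2 (chr2:169362535-169362634, minus) is below 4 with a ratio of 0.764, and is CpG-rich. CUBN (chr10:17129812-17129911, minus) and SLC34A1 (chr5:177384334-177384433, plus) are below 4, with ratios of 0.0806 and 0.189. The ratios and the term CpG-rich refer to the promoters of 300 bases and not to the stretches printed.
TFRC: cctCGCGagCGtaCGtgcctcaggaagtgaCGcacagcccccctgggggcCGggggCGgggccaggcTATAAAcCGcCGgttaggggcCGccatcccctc
CLDN1: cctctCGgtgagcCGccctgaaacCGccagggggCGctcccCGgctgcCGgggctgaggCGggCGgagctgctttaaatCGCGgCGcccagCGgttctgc
SPP1: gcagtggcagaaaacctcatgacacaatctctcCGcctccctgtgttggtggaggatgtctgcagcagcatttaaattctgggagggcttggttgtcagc
LRP2: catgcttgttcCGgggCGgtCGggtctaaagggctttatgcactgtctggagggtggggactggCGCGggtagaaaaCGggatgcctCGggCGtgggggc
CUBN: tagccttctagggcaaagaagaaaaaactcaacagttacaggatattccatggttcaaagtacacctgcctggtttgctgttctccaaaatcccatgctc
SLC34A1: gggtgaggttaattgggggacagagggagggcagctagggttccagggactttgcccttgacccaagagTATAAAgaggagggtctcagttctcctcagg
The TFRC and SLC34A1 stretches each hold TATAAA. A match describes the letters and is no sign of a factor bound there.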

How the data were processed

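The RNA was labelled with biotin and hybridised to Affymetrix arrays, per the labels. The deposited log2 values per probe set were made by the authors with GCRMA, per the submitters' processing notes. Its version, and which arrays were normalised together, are not given in the sources used here. Nothing was normalised again. Precision is limited by having 3 arrays.

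The file holds 54675 probe sets. After removal of 62 controls, the platform annotation named 1 gene for 41091, several for 1801 and none for 11721. Probe sets with the suffix _x_at, which marks possible cross-hybridisation, served only genes that lack any other (418 of 19740). Y-linked genes and XIST were not analysed. A gene is shown by its brightest probe set, chosen among those above 4 in all 3 arrays where it has one. This choice replaced the plain brightest once values had been seen, and it matters for 2 genes. Of 939 genes in 27 lists, 856 were measured, and the others have no probe set annotated to that gene alone.

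The members and lists were chosen with earlier results of these data known, and 3 lists were renamed, with the same members, once values had been seen. The rule names the 40 brightest genes, up to 8 of the brightest members above in each list, members below, all that are neither, the 3 members nearest the threshold on each side, the 12 genes with the widest range, and preset receptors and markers. Further list members above, the noncoding RNAs, the members with _x_at probe sets and the description by promoters and by number of probe sets were added with values known. The classification code was run on simulated probe sets with levels far above or far below the threshold. That run checks the code only and says nothing of genes near the threshold. No model was fitted. The alternatives were other levels, other handling of probe sets, centring, quantile normalisation and leaving out each array. Python 3.11.15, pandas 2.3.3 and matplotlib 3.10.9 were used.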

Additional observations from a re-analysis of the deposited data

How the results depend on the processing

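No paired analysis was possible because the values describe 1 group and come from no test. Requiring every probe set of a gene to be above 4 left 5766 genes above in place of 10097, with 36 epithelial (main count 66), 17 mesenchymal (41) and 54 receptor genes (134). For tubular genes it left 67 of 100, within 1.5 times of the main count. The counts of single lists moved more. Of 27 lists, 20 moved by over 1.5 times when every probe set was required, among them mesenchymal transcription factors (7 to 1), tight junction genes (16 to 6), receptor tyrosine kinases (21 to 7), nuclear receptors (17 to 6) and G protein-coupled and natriuretic peptide receptors (15 to 7). With the median probe set 6 lists did, integrins (13 to 8), Wnt, Notch and Hedgehog receptors (11 to 6), mesenchymal transcription factors (7 to 4), nuclear receptors (17 to 11), nutrient and scavenger receptors (16 to 10) and markers of other segments (8 to 3). A level of 3 moved 2 lists, G protein-coupled and natriuretic peptide receptors (15 to 25) and genes of other tissues (3 to 9), and levels of 5 and 6 moved the markers of other segments. The 5 counts over all genes and over the 4 groups stayed within 1.5 times under the other alternatives, namely levels of 3, 5 or 6, all probe sets with _x_at, the median probe set, median centring, quantile normalisation and leaving out 1 array. With a level of 6, 8083 genes were above and with a level of 3, 11808. Without 1 array the count was 10137 to 10163. A gene whose probe sets disagree is the main limit on its side of the threshold, and a value under 4 is no measure of absence.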

Other observations

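Of 2645 genes annotated as long noncoding RNA, 231 were above 4 in all 3 arrays (8.73%), against 9757 of 16505 protein-coding genes (59.1%). The brightest were MALAT1, a nuclear RNA, at 13.07, 13.12 and 13.51, ZFAS1, a host of small nucleolar RNAs, at 12.12, 11.98 and 11.99, LINC02274 at 11.58, 11.54 and 11.42, CRNDE at 11.48, 11.42 and 11.14, and NORAD, which binds Pumilio proteins, at 11.27, 11.27 and 11.39. MALAT1 was highest in replicate 3, and its 5 probe sets were all above. These genes were picked by brightness.

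Among the 10097 genes above, 26 (0.258%) had a range between arrays of more than 1. Replicate 3 was the lowest in 19 of the 26. FAM111B had the widest range, at 4.78, 5.19 and 6.23, and RTKN2 followed at 5.46, 5.23 and 4.07. CCL28, a mucosal chemokine, had 5.98, 5.90 and 4.60, and SYNC had 5.38, 5.67 and 4.33. EFNA2, an ephrin ligand, had 5.03, 6.35 and 5.80, and H3-3A, a replication-independent histone, had 6.61, 6.86 and 5.59. SLC39A7, ANKRD13D, CPLANE1, SBF2-AS1, BEX5 and SOX6 made up the rest of the 12 widest, with ranges of 1.13 to 1.22. The means of all 12 lay between 4.79 and 6.72.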
